A study of Mus musculus with 6 samples.

Results

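Kinesins are motor proteins that walk along microtubules or take them apart, using the energy of ATP. In dividing cells one set of kinesins separates the spindle poles, moves chromosomes and builds the midzone where the cell is cut, and many of these genes are transcribed mainly around mitosis. Other kinesins carry vesicles, endosomes, mitochondria and the building blocks of cilia in cells that are not dividing, and in a polarised epithelium such as the mammary duct they serve traffic between the apical and basal sides.

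The kinesin genes were taken by symbol, as Kif or Kifc followed by a number and at most 1 letter, and 38 of the 16701 genes listed in the authors' deposited table fit. Of these, 12 were called mitotic (Kif2c, Kif4, Kif11, Kif14, Kif15, Kif18a, Kif18b, Kif20a, Kif20b, Kif22, Kif23 and Kifc1) and 26 were the other kinesins. Both sets were defined by name, not by the values. RefSeq holds 42 protein-coding mouse genes of this naming, and 4 of them, Kif2b, Kif6, Kif12 and Kif28, were not listed in the table and are not analysed here. The samples were luminal epithelial cells of the mammary gland, the duct-lining and milk-producing cells, from mice at 7 weeks of age. The control group is 3 libraries with the genotype WT and the knockout group is 3 libraries with the genotype Ocln knockout (Ocln-/-), occludin being a membrane protein of tight junctions. How the allele was made, the strain, the sex, how cells were isolated and which mouse each library came from is not given in the sources used here, so the p-values measure only how far these libraries spread, which may be technical in part. The series is titled for mitotic endosomes that organise the spindle through the binding of occludin to FIP5, a protein of recycling endosomes.

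The data are 1 comparison, knockout over control, with a mean level in normalized counts, a log2 fold change with the standard error (SE) for each gene, so no values per library can be shown and the depth of each library is unknown. Group levels below were derived from the mean level and the fold change, for groups of equal size. Ocln itself fell to 44.9 percent of control in the authors' deposited table (log2 fold change -1.15 ± 0.16 SE, DESeq2 adjusted p = 4.36e-09). All 10 of 10 luminal markers were listed, but so were 8 of 8 basal markers, so the luminal label was checked by level. Of the luminal markers 0 passed, where 1.08 percent of all listed genes did, and their median log2 fold change was -0.03. At an unadjusted DESeq2 p under 0.05, 1 was higher and 1 lower, against 5.23 and 3.83 percent of all listed genes. Per kilobase of merged exon, the mean level of Krt8 was 31521 normalized counts, against 52.8 for Krt5 and 303 for Acta2, markers of the basal layer. Over the full lists the median per kilobase was 15323 for luminal and 67.1 for basal markers. The lists overlap, since the lowest luminal marker, Esr1 at 257, lay below the highest basal marker, Acta2.

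Before the values, promoters of the mitotic kinesins are shown, since the values of all mitotic members had 1 sign and genes of mitosis are known to share promoter elements. The cell cycle genes homology region (CHR, searched as TTTGAA or TTCGAA on both strands) and the CCAAT box (CCAAT on both strands) are such elements. Promoters from RefSeq (GRCm38.p6, 250 bases before to 50 after the start) were matched by symbol for 30 of the 38 listed kinesins, 11 mitotic and 19 other. Each line gives 90 bases before to 30 after the start, 5′ to 3′ on the strand of the gene, with CHR and CCAAT letters in capitals (the reverse letters are TTCAAA and ATTGG).
Kif11: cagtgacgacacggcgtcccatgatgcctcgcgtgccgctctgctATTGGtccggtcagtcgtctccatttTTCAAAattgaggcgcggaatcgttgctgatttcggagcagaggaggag
Kif18b: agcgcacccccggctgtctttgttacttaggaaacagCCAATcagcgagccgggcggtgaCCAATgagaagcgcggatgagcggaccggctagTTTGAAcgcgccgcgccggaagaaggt
Kif20b: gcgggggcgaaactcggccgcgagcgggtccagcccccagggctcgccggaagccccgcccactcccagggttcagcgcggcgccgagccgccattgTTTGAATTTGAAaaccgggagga
Kif23: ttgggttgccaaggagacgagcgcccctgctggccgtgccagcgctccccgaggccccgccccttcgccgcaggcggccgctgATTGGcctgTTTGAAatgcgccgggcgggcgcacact
Kif26b: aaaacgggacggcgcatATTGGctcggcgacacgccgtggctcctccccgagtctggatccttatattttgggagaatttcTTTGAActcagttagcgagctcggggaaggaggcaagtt
The windows lie at chr19:37376292-37376411 on the plus strand for Kif11, chr11:102925095-102925214 on the minus strand for Kif18b, chr19:34922268-34922387 on the plus strand for Kif20b, chr9:61946770-61946889 on the minus strand for Kif23 and chr1:178529035-178529154 on the plus strand for Kif26b. The first 4 are mitotic kinesins, and Kif26b is one of the other kinesins that holds the same letters. In Kif20b the CHR letters stand in tandem, with their first bases at positions 8 and 14, counting the first transcribed base as 1.

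CHR letters within 50 bases of the start were found in 8 of 11 mitotic kinesins (72.7 percent), namely Kif4, Kif11, Kif15, Kif18b, Kif20b, Kif22, Kif23 and Kifc1. They were found in 4 of 19 other kinesins (21.1 percent), Kif1a, Kif24, Kif26b and Kifc5b, and in 6.12 percent of the 27025 genes with a promoter in the table. By single windows rather than genes, 5.31 percent of 32851 held them. A CCAAT box alone was found in 7 of 11 mitotic kinesins, 7 of 19 other kinesins and 41.1 percent of all genes. A CCAAT box that ended 15 to 60 bases before a CHR near the start was found in 5 of 11 mitotic kinesins, 3 of 19 other kinesins and 0.703 percent of all genes. Kif2c, Kif14 and Kif18a lacked CHR letters near the start. The letters are a description of sequence and no binding was measured.

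None of the mitotic kinesins passed the test, and all 12 had a negative log2 fold change. By the DESeq2 adjusted p of the authors' deposited table, 0 of 12 were below 0.05, where 1.08 percent of all listed genes did, 0.275 percent in the lower and 0.808 percent in the higher direction. At an unadjusted p under 0.05, 3 of 12 were lower and 0 higher, against 3.83 percent of all listed genes lower and 5.23 percent higher. A negative value was found in 51.2 percent of all listed genes. The median log2 fold change of the 12 was -0.80, or 57.5 percent of control, against -0.02 for the 26 other kinesins and -0.01 for all listed genes. Among the 3058 listed genes in the same range of mean levels, 1764 were negative, with a median of -0.06. At an unadjusted p under 0.05, 193 of these were lower and 157 higher. The 5 other kinesins in that range had a median of -0.23, with 4 negative. Genes of 1 set share libraries and are not replicates, so the medians carry no test. In bulk RNA, fewer dividing cells and less RNA per cell cannot be told apart.

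**Figure D1:**
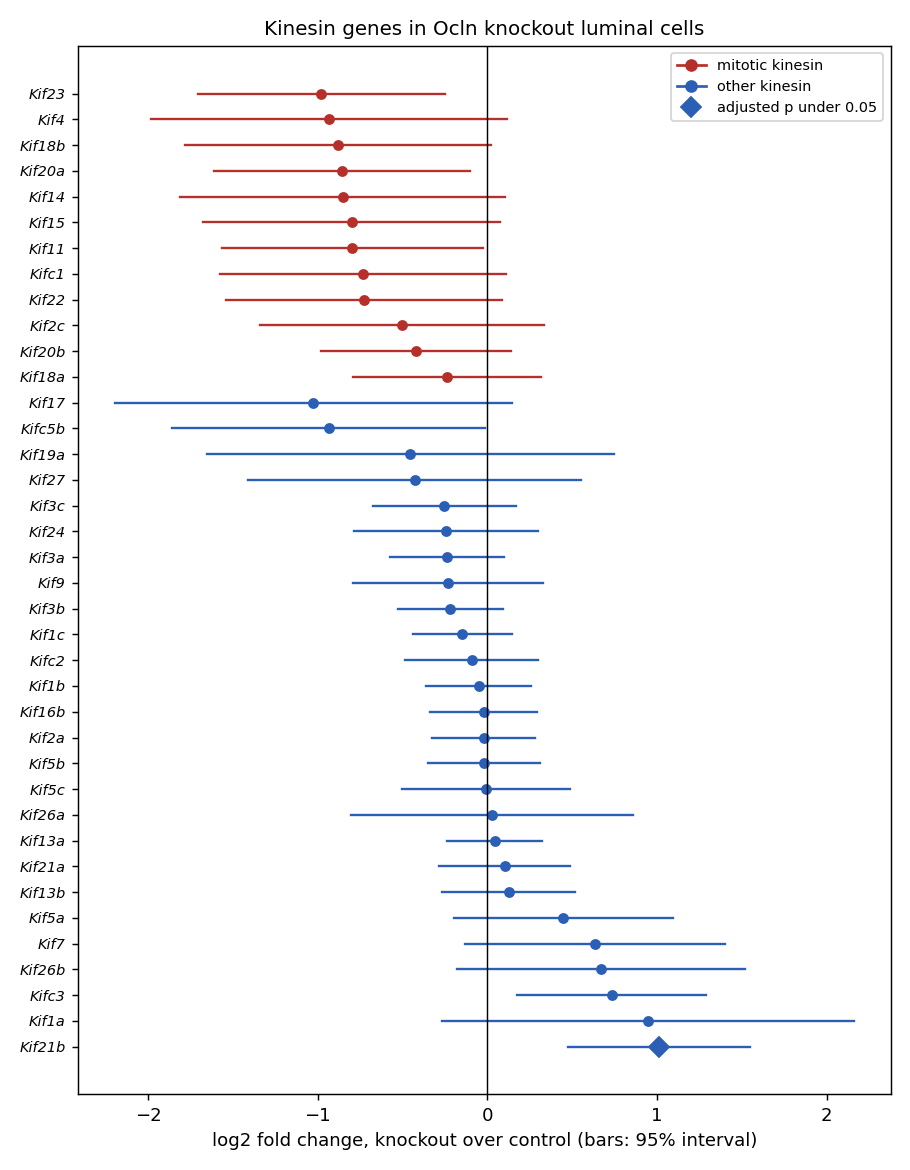
Log2 fold change (x axis, knockout over control) of each of the 38 kinesins, with bars of the 95 percent interval from the SE, mitotic kinesins in red and other kinesins in blue. All 12 mitotic kinesins lie left of 0 and 3 of their intervals exclude 0, while Kif21b, drawn as a diamond, alone has an adjusted p under 0.05.

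Among the kinesins of the spindle midzone and of cell cutting, Kif23 and Kif20a had the lowest p-values of the mitotic set. Kif23, a subunit of centralspindlin that bundles midzone microtubules, had a derived level of 321 normalized counts in controls and 163 in knockouts. Its log2 fold change in the authors' deposited table was -0.98 ± 0.37 (SE, 95 percent interval -1.70 to -0.25), with an unadjusted p of 0.0083 and a DESeq2 adjusted p of 0.266. Kif20a, which brings the chromosomal passenger complex to the midzone, stood at 208 and 115 normalized counts. Its value in the authors' deposited table was -0.86 ± 0.39 (unadjusted DESeq2 p = 0.0265, adjusted p = 0.449). Both genes therefore stood near 50.8 and 55.2 percent of control, without passing over all genes. Kif14, which acts with citron kinase in the last step of division, had 86.6 normalized counts in controls and 48.0 in knockouts, and the authors' deposited table gives it -0.85 ± 0.49. Kif20b, a relative of Kif20a, had 197 against 147 normalized counts and -0.42 ± 0.29 in the authors' deposited table. Kif4, a motor of chromosomes and of the midzone, had 142 against 74.7 normalized counts and the largest SE of the mitotic set in the authors' deposited table (-0.93 ± 0.54). These 5 genes thus ran from 50.8 to 74.7 percent of control, and only Kif23 and Kif20a of them had an interval below 0.

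Motors that set up the spindle poles had values of like size. Kif11, the motor that pushes the poles apart, had the highest mean level of the mitotic set, 284 normalized counts, with a derived 360 in controls and 208 in knockouts. Its value in the authors' deposited table was -0.79 ± 0.39 (unadjusted DESeq2 p = 0.0429, adjusted p = 0.521), an interval that ended at -0.03. Kif15, which can back up Kif11, stood at 167 and 95.6 normalized counts, with -0.80 ± 0.45 in the authors' deposited table. Kifc1, a motor that walks to the minus end and focuses the poles, stood at 184 and 111 normalized counts, with -0.73 ± 0.43 in the authors' deposited table. The 3 pole motors were thus at 57.6, 57.4 and 60.2 percent of control, and only the interval of Kif11 excluded 0.

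Motors of chromosomes and microtubule ends spread more widely. Kif22, which pushes chromosome arms away from the poles, stood at 189 normalized counts in controls and 114 in knockouts (-0.73 ± 0.41 in the authors' deposited table). Kif18b, which shortens astral microtubules, stood at 127 and 68.9 (-0.88 ± 0.46 in the authors' deposited table). Its family member Kif18a, which damps the movements of aligned chromosomes, stood at 135 and 114 and had the smallest change of the mitotic set in the authors' deposited table (-0.24 ± 0.28, adjusted p = 0.907). Kif2c, a depolymerase that frees wrongly attached kinetochores, stood at 141 and 99.8 (-0.50 ± 0.43 in the authors' deposited table). Unadjusted DESeq2 p-values of these 4 genes and of the 5 others above 0.05 ran up to 0.402. The difference between Kif18a and Kif18b was not tested, and their intervals, -0.79 to 0.32 and -1.78 to 0.02, overlap.

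**Figure D2:**
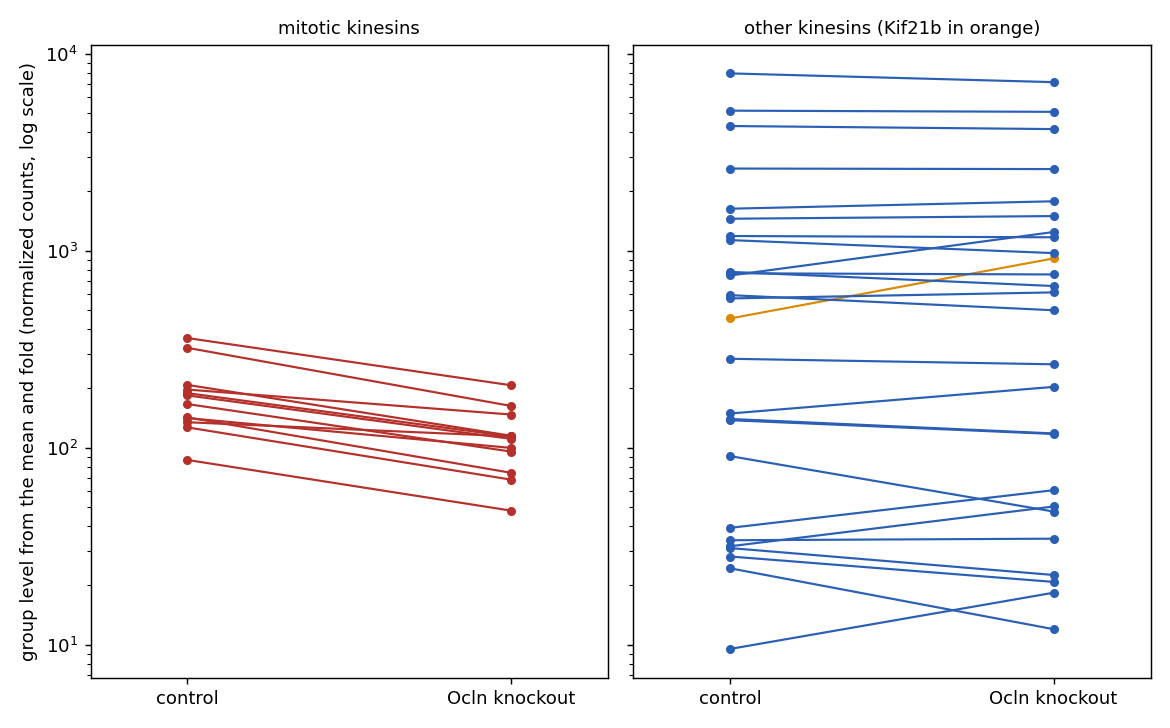
Derived level of each kinesin in the control and the knockout group (y axis, normalized counts on a log scale), with 1 line for each gene. Every mitotic kinesin (left) has a lower derived level in the knockout, though none passed the test, while lines of the other kinesins (right) go both ways and Kif21b, in orange, goes from 453 to 913.

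Counts alone would allow a finer measurement than the SE shows. With 3 libraries a group taken as equally deep, counting error alone would give the mitotic kinesins an SE between 0.07 and 0.15 on the log2 scale, whereas the SE in the authors' deposited table ran from 0.28 to 0.54. The ratio had a median of 4.09 over the 12 genes. Over the 3058 listed genes in the same range of mean levels, 67.3 to 284 normalized counts, the median ratio was 2.77 and the median SE 0.28, against a median SE of 0.42 for the mitotic kinesins. Genes that passed had a Wald score of at least 3.46 in size in the authors' deposited table. At their SE the mitotic kinesins would therefore have needed a log2 fold change of 0.98 (Kif18a) to 1.85 (Kif4) in size to pass, that is, for a fall, a level between 50.7 and 27.7 percent of control. Smaller estimated falls would not have passed for these genes at these SE, which sets no limit on the true fall.

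**Figure D3:**
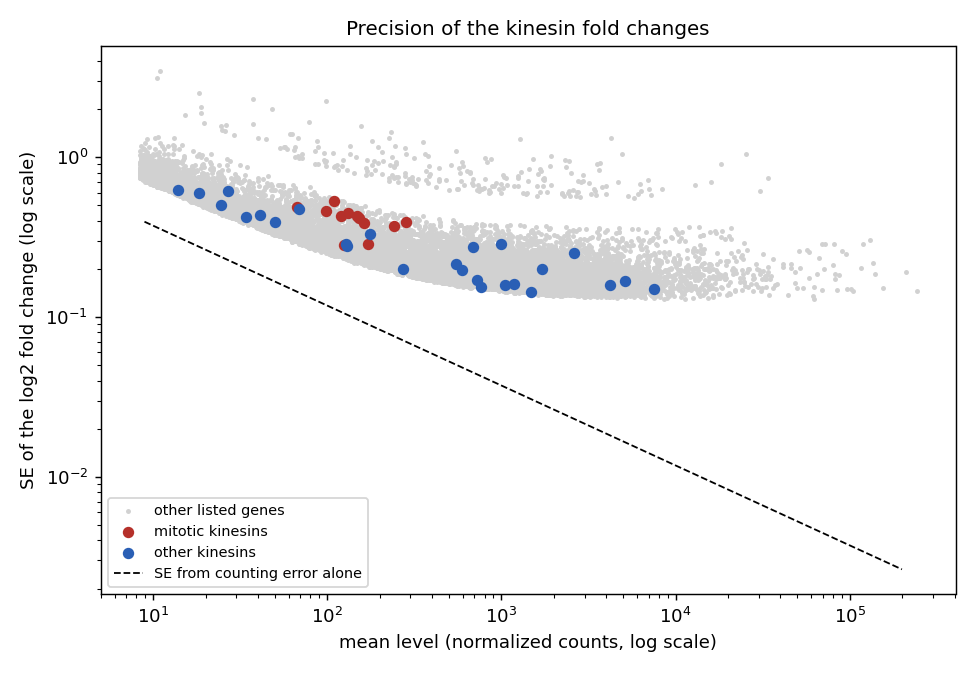
SE of the log2 fold change (y axis, log scale) against mean level in normalized counts (x axis, log scale) for all listed genes (grey), mitotic kinesins (red) and other kinesins (blue), with the SE from counting error alone as a dashed line. The line takes both groups as equal in level, and the mitotic kinesins lie above it. At the derived group levels of each gene, their SE was 2.68 to 5.41 times that from counting error alone.

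Most partners of the mitotic kinesins also had negative values. Of 24 partner genes, all listed, 0 passed the DESeq2 test, where 1.08 percent of all listed genes did. At an unadjusted p under 0.05, 14 were lower and 0 higher (3.83 and 5.23 percent of all listed genes). A negative value was found for 22 (51.2 percent of all listed genes), and the median log2 fold change of the 24 was -0.86. Racgap1, the other subunit of centralspindlin, had -0.92 ± 0.32 and an adjusted p of 0.179 in the authors' deposited table. Spag5, an astrin that works at kinetochores and poles, had -1.20 ± 0.42, Anln, an actin-binding scaffold of the cleavage furrow, -0.71 ± 0.27, and the kinetochore motor Cenpe, a kinesin not named Kif, -1.08 ± 0.42 in the authors' deposited table. The authors labelled the partners Spag5, Cenpe, Hmmr, Plk1 and Aurkb Down, where 2.79 percent of all listed genes were called Up or Down. The 2 partners with the highest mean levels, which cells also use outside division, had positive values in the authors' deposited table: the pole protein gene Numa1 had 0.07 ± 0.16 and the plus-end protein gene Mapre1 0.23 ± 0.15. Of 15 proliferation markers, all listed, 0 passed, 4 were lower and 0 higher at an unadjusted DESeq2 p under 0.05, against 3.83 and 5.23 percent of all listed genes, and the median was -0.84. The lowest p among them belonged to Cenpf (-1.27 ± 0.39, adjusted p = 0.0735) in the authors' deposited table, followed by the cyclin genes Ccnb2 (-1.33 ± 0.45), Ccna2 (-1.01 ± 0.44) and Ccnb1 (-1.17 ± 0.54). Of the markers, the authors labelled Cenpf, Ccnb2 and Ccnb1 Down and the rest Stable. The most abundant markers, Mcm6 and Top2a, had -0.14 ± 0.34 and -0.93 ± 0.64 in the authors' deposited table. Markers of DNA replication spread widely in the authors' deposited table. Mcm2 had -0.17 ± 0.25, Mcm3 -0.17 ± 0.28, Mcm5 -0.27 ± 0.36 and Pcna 0.21 ± 0.17. Tyms and Rrm2, other such markers, had -0.54 ± 0.33 and -0.82 ± 0.73 in the authors' deposited table. Of the 15 markers 14 had a negative value, and their part in the kinesin values was not tested.

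Among the other kinesins 1 gene rose. Kif21b, a motor of the kinesin-4 family that carries cargo and tunes microtubule growth in neurons and lymphocytes, had a derived level of 453 normalized counts in controls and 913 in knockouts, a 2.02-fold rise. In the authors' deposited table its log2 fold change was 1.01 ± 0.27 (SE, 95 percent interval 0.48 to 1.55), with a DESeq2 adjusted p of 0.0264. It lies on chromosome 1 of GRCm38, from 136131389 to 136177998 on the plus strand. The authors labelled it Stable, and the smallest log2 fold change among their Up and Down calls was 1.0143 in size, just above the value of Kif21b. They called 0 of the 38 kinesins, against 2.79 percent of all listed genes. The call of Kif21b was lost after scores were centred within bins of transcript length (adjusted p = 0.0938) and after division by 1.09, the root of the inflation factor over all scores (adjusted p = 0.0803). Its merged exons, 12184 bases, are long beside a median of 3825 over all listed genes. Lymphocytes are known to express Kif21b, and 4 of 9 T, NK and B cell markers were listed, all with positive values and none passing. Of all listed genes 1.08 percent passed and 51.2 percent had a negative value. The derived levels of the 4 summed to 249 normalized counts in controls and 516 in knockouts, but all 4 intervals include 0. Ighm alone went from 97.7 to 292 (1.58 ± 1.15 in the authors' deposited table), while the T cell marker Trbc2 had 0.22 ± 0.47. The part of these markers in the result was not tested.

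Of the 26 other kinesins, Kif21b alone passed in the authors' deposited table, where 1.08 percent of all listed genes did. At an unadjusted p under 0.05 this set had 2 higher genes, Kif21b and Kifc3, and 1 lower gene, Kifc5b. The shares over all listed genes were 5.23 percent higher and 3.83 percent lower. Positive values were found for 10 and negative values for 16. Kif21a, the closest relative of Kif21b, which limits microtubule growth at the cell cortex, stood at 572 and 614 normalized counts (0.10 ± 0.20 in the authors' deposited table). The interval of Kif21a, -0.28 to 0.49, just overlaps that of Kif21b, and the difference between them was not tested. Of the same family, Kif7, a regulator of Hedgehog signals in the cilium, had 0.63 ± 0.39 and its relative Kif27 had -0.43 ± 0.50 in the authors' deposited table, both at low mean levels of 50.04 and 24.4 normalized counts.

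**Figure D4:**
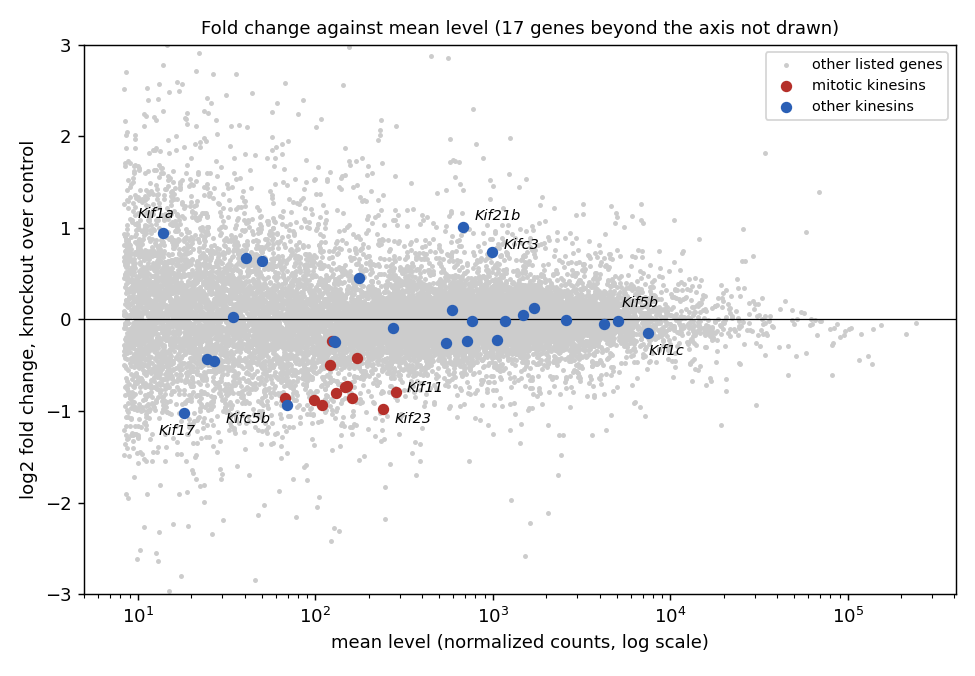
Log2 fold change (y axis, knockout over control) against mean level in normalized counts (x axis, log scale) for all listed genes (grey), mitotic kinesins (red) and other kinesins (blue), with 17 genes outside the axis not drawn. Mitotic kinesins form a group between 67.3 and 284 normalized counts below 0, while the most abundant other kinesins lie near 0.

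The kinesin-14 family, motors that walk to the minus end, was split. Kifc3, which serves apical transport and cell junctions in epithelia, stood at 748 normalized counts in controls and 1243 in knockouts, with 0.73 ± 0.28 in the authors' deposited table (unadjusted DESeq2 p = 0.01, adjusted p = 0.288). Kifc2 stood at 283 and 265 normalized counts (-0.09 ± 0.20 in the authors' deposited table). Kifc5b stood at 90.6 and 47.4 normalized counts, with -0.93 ± 0.47 in the authors' deposited table (unadjusted DESeq2 p = 0.0474, adjusted p = 0.54). It is a near copy of Kifc1: 21.2 percent of the windows of 100 bases in its transcripts occur letter for letter in those of Kifc1. Reads of the 2 genes may have been divided between them, so both values are uncertain. Counted with the mitotic kinesins, Kifc5b would leave 2 higher and 0 lower among the other 25 at an unadjusted p under 0.05.

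The most abundant carriers of vesicles and organelles had values close to 0. Of the 14 kinesins with a mean level of at least 500 normalized counts, all in the other set, 1 passed in the authors' deposited table, Kif21b. Over all listed genes 1.08 percent passed. The median log2 fold change of the 14 was -0.02, though Kifc3, given above, was among them with 0.73 ± 0.28. Kif1c, a motor of vesicles between Golgi and periphery, had the highest level per kilobase of merged exon of all kinesins, 1037 normalized counts. It stood at 7931 and 7160 normalized counts (-0.15 ± 0.15 in the authors' deposited table). Kif5b, the widely expressed heavy chain of kinesin-1, followed with 639 per kilobase and -0.02 ± 0.17 in the authors' deposited table. Its neuron-enriched relative Kif5c had 364 per kilobase and -0.01 ± 0.25, and Kif5a, the other such relative, 25.2 per kilobase and 0.45 ± 0.33 in the authors' deposited table. Kif1b, a carrier of mitochondria and synaptic vesicle precursors, had 239 per kilobase and -0.05 ± 0.16 in the authors' deposited table. The intervals of these 5 motors all include 0, and that of Kif5b, -0.35 to 0.31, bounds its change more tightly than the interval of any mitotic kinesin.

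Motors of endosomes, the compartment the series is about, were among the most precisely measured. Kif13a, which moves recycling endosomes, stood at 1452 normalized counts in controls and 1497 in knockouts, with 0.04 ± 0.14 in the authors' deposited table, the smallest SE of all 38 kinesins (95 percent interval -0.24 to 0.32). Kif16b, a motor of early endosomes, stood at 1186 and 1169 (-0.02 ± 0.16 in the authors' deposited table). Kif13b, which carries the polarity protein Dlg1, stood at 1632 and 1780 (0.13 ± 0.20 in the authors' deposited table). The neuronal Kif1a had the lowest mean level of all kinesins, 13.95 normalized counts (0.95 ± 0.62 in the authors' deposited table). The first 3 motors differed from control by less than their errors, and Rab11fip5, the gene of FIP5, had 0.54 ± 0.22 (adjusted p = 0.317) in the authors' deposited table.

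Kinesin-2 motors and other kinesins of cilia did not pass, and Kif7, a ciliary member of kinesin-4 given above, had a positive value. Kif3a and Kif3b, which pair to move cargo into the cilium, stood at 780 against 661 and 1131 against 972 normalized counts. Their values in the authors' deposited table were -0.24 ± 0.17 and -0.22 ± 0.16. Kif3c, which can pair with Kif3a, had -0.25 ± 0.22, and Kif17, a motor of cilia and dendrites at a mean level of only 18.2 normalized counts, had -1.02 ± 0.60 in the authors' deposited table. All 4 members of this kinesin-2 family thus had negative values, 3 of them at 83.8 to 85.9 percent of control, with intervals that include 0. Kif9, a motor of moving cilia, had -0.23 ± 0.29, and Kif19a, which shortens ciliary microtubules, -0.45 ± 0.61 in the authors' deposited table. Of merged exons of Kif3c, 35.3 percent overlap an antisense gene, so its reads may be mixed if strand was not used in counting.

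Depolymerases of the kinesin-13 family differed in level more than in any passing change. Kif2a, which acts at spindle poles and also in cells that do not divide, had 119 normalized counts per kilobase, against 27.6 for the mitotic Kif2c and 16.1 for Kif24, which holds back cilium formation at the centriole. Their log2 fold changes in the authors' deposited table were -0.02 ± 0.15 for Kif2a, -0.50 ± 0.43 for Kif2c and -0.24 ± 0.28 for Kif24. Kif2a lies 6.41 Mb from Ocln on chromosome 13 of GRCm38, from 106958996 to 107022126 on the minus strand, and is the listed kinesin nearest to Ocln. The atypical kinesins Kif26a and Kif26b, which bind microtubules without working as motors, had 0.03 ± 0.42 and 0.67 ± 0.43 in the authors' deposited table, at mean levels of 34.2 and 41.0 normalized counts.

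Light chains and adaptors of the transport kinesins likewise had a median near 0. Of 34 such genes 29 were listed, and 0 passed the DESeq2 test, where 1.08 percent of all listed genes did. At an unadjusted p under 0.05, 1 was lower and 0 higher, against 3.83 and 5.23 percent of all listed genes. Their median log2 fold change was 0.06, with values from -0.43 to 0.35. The gene with the lowest p was Mapk8ip1, an adaptor of kinesin-1 and JNK kinases (-0.43 ± 0.18, adjusted p = 0.362 in the authors' deposited table). Appbp2 (0.30 ± 0.16), Plekhm2, which links lysosomes to kinesin-1 (0.35 ± 0.21), and Trak1, the mitochondrial adaptor (0.30 ± 0.20), followed in the authors' deposited table. The members of highest mean level were Ktn1, a kinesin-binding protein of the endoplasmic reticulum (-0.33 ± 0.22 in the authors' deposited table), and Trak1. The light chain genes Klc1 (0.06 ± 0.15), Klc2 (0.14 ± 0.18), Klc3 (0.10 ± 0.17) and Klc4 (-0.02 ± 0.17) and the kinesin-2 subunit gene Kifap3 (-0.09 ± 0.16) differed from 0 by less than their SE in the authors' deposited table.

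Exons of some mitotic kinesins also overlap other genes on the opposite strand. For Kif20a 29.3 percent of merged exon length overlaps Cdc23, and for Kif4 15.1 percent overlaps Pdzd11, whose values in the authors' deposited table were -0.14 ± 0.15 and -0.14 ± 0.19. Whether strand was used in counting is not given in the sources used here, so reads of such pairs cannot be told apart. Markers of other cells were listed too: 8 of 8 basal, 8 of 8 macrophage, 6 of 6 fibroblast, 5 of 5 endothelial and 6 of 8 neuron and Schwann markers. By DESeq2, 1 basal marker, Oxtr (-1.55 ± 0.38), and 1 fibroblast marker, Dcn (-1.36 ± 0.35), fell in the authors' deposited table, and 0 markers of the other lists passed. Over all listed genes 1.08 percent passed, 0.275 percent as lower. At an unadjusted p under 0.05, 1 basal, 1 macrophage and 1 neuron and Schwann marker were higher (5.23 percent of all listed genes). In the lower direction there were 1 basal and 1 fibroblast marker (3.83 percent), and 0 endothelial markers in either. Between controls and knockouts the summed derived levels were 2286 and 1930 for basal, 7067 and 9158 for macrophage, 1552 and 1356 for fibroblast, 1422 and 1491 for endothelial and 4394 and 5934 normalized counts for neuron and Schwann markers. Oxtr alone went from 581 to 199 and Dcn alone from 557 to 217, while the other 5 fibroblast markers had positive values and the basal keratin gene Krt17 had 0.86 ± 0.42 in the authors' deposited table. All 8 macrophage markers had positive values, with a median of 0.41, Lyz2 having the lowest p (0.97 ± 0.29, DESeq2 adjusted p = 0.0665), and Cd14 held most of their sum. Sox10 held most of the neuron and Schwann sum. Their part in the kinesin values was not tested.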

How the data were processed

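Polyadenylated RNA was sequenced in 3 control and 3 Ocln knockout libraries, grouped by their titles. Per the submitters' processing notes, DESeq2 and build mm10 were used; the aligner, counter and versions were not given in the sources used here. In the table, per the file headers, the authors gave a mean level (a signal in normalized counts), a log2 fold change and its SE, the Wald score, the p-value, the adjusted p-value and another kind of value, the authors' call. The score equalled fold change over SE to within 2.58e-07. The comparison is knockout over control by the name of the table. No new test per gene was made.

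With Python 3.11.15, pandas 2.3.3 and scipy 1.17.1, intervals of 95 percent were taken from the SE and the normal distribution. Group levels were derived from mean and fold, positions and merged exon lengths from GENCODE vM21 (GRCm38), and promoters from RefSeq. Lengths were found for 16461 genes (98.6 percent). Scripts were tested on simulated data. Mitotic kinesins were named in full, as were other kinesins at an unadjusted p under 0.05, the most abundant of each family and, in the lists of partners, adaptors and proliferation markers, the members with the lowest p and highest level. Markers of DNA replication, light chain genes and Kifap3 were named outside this rule. Of the lists of cell type markers, members were named where they passed, carried or went against a sum, or had the lowest p. Others were named to check the label. All of these were chosen after their values were seen. Kinesins and lists were chosen with earlier results of these data known, as were the promoter motifs.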

Additional observations from a re-analysis of the deposited data

How the results depend on the processing

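The count of mitotic kinesins called, 0, stayed at 0 at an adjusted p under 0.01, above a mean level of 50, by the authors' own calls, with scores centred in 20 bins of transcript length and with scores rescaled for inflation, and was 3 at an unadjusted p under 0.05. The count of other kinesins called, 1, stayed at 1 above a mean level of 50, was 3 at an unadjusted p under 0.05, and was 0 at an adjusted p under 0.01, by the authors' own calls, after centring by length and after rescaling for inflation. For the last 2 settings the adjusted p of Kif21b was 0.0938 and 0.0803, and its log2 fold change of 1.01 does not depend on them. The median log2 fold change of the mitotic kinesins ran from -0.66, as a mean weighted by precision, to -0.80 over 5 settings, and that of the other kinesins from -0.01 to -0.03 over 5 settings. The rescaling and the moves of Kifc5b between sets were chosen after seeing the data. No library could be left out, since the table holds no values per library. No paired analysis was possible because the table carries no columns for single libraries. Low levels limit Kif1a, Kif17, Kif19a, Kif26a, Kif26b and Kif27, with SE from 0.42 to 0.62.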
